A study of Mus musculus with 22 samples.

Results

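Lung epithelial cells of mouse embryos at E18.5, an embryonic day shortly before birth, were compared between Nkx2.1-GFP heterozygotes and wild type. The comparison rests on 6 of the 22 libraries of the series: 3 labelled Nkx2.1-GFP/+ (here Nkx) and 3 labelled NANCI-+/+ (here WT), chosen by their genotype and age labels. It covers all 13750 genes measured at that age. The remaining E18.5 libraries, of NANCI homozygotes and of double heterozygotes, also entered the estimate of the spread behind the standard errors and p-values. Nkx embryos carried 1 copy of an allele named for green fluorescent protein at Nkx2-1 and, per the labels, no other allele. WT embryos are labelled by their NANCI genotype alone, NANCI being the long noncoding RNA gene beside Nkx2-1 that the study is about. The labels give no strain, no sex and no Cre line for these groups, and do not say which part of Nkx2-1 the allele replaces or whether embryos were pooled. Cells were enriched with magnetic beads for EpCAM, a surface protein of epithelia, and no depletion of other cell types is described. The study asks how the paired genes NANCI and Nkx2-1 keep the Nkx2-1 level steady. The values are log2 expression, quantile-normalized among the E18.5 libraries, so each value reflects a gene's rank in its library and levels are compared only within a gene.

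Nkx2-1 encodes a homeodomain transcription factor that marks the future lung and thyroid in the foregut and later maintains the identity of lung epithelium. In the lung it binds the promoters of the surfactant protein genes and of Scgb1a1, the secretoglobin of club cells. Stomach and intestine arise from gut tube endoderm that does not use Nkx2-1, and factors such as Spdef, Atoh1 and Hnf4a act in gut epithelium. Near birth the distal lung holds alveolar type 2 (AT2) cells, which make surfactant, and flat alveolar type 1 (AT1) cells, while the airways hold club, ciliated and neuroendocrine cells.

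Nkx2-1 itself (chromosome 12, 56531958 to 56536908, minus strand; coordinates throughout are GRCm38 from GENCODE, matched on gene ID) was at 14.77, 14.73 and 14.95 in Nkx libraries, against 14.48, 14.84 and 14.93 in WT libraries. The groups overlapped, and the difference of 0.07 ± 0.14 (log2, Nkx minus WT; ± is the standard error for differences throughout) did not pass in limma (adjusted p = 0.82) and lay between −0.06 and 0.16 when 1 library at a time was left out. Reads from the GFP allele may be counted, so this level does not check the labels. Epcam was at 13.11, 13.49 and 13.34 in Nkx libraries, against 13.23, 13.26 and 12.8 in WT libraries, and the epithelial cadherin gene Cdh1 was at 15.34 to 16.07 in all 6, so both epithelial markers were present in each library. Neither passed. Epcam differed by 0.22 ± 0.18 (limma adjusted p = 0.539) and Cdh1 by 0.50 ± 0.14 (limma adjusted p = 0.052), the latter close to the threshold of 0.05.

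The libraries parted by genotype on the first principal component of the 12 E18.5 libraries, which held 42.1% of the variance: Nkx libraries lay at 22.4, 35.0 and 28.6, and WT libraries at −41.1, −35.4 and −39.9. Within both groups the libraries differ in sex pattern. Nkx replicates 1 and 2 and WT replicates 2 and 3 showed a female pattern, and WT replicate 1 a male one. Nkx replicate 3 stood apart: its Y-linked genes averaged 12.22, a male level, yet its Xist value was 11.34, against 7.53 in the male WT library. The median over 80 ribosomal protein genes was 13.43, 14.13 and 13.55 in Nkx libraries and 14.43, 14.35 and 13.19 in WT libraries, so WT replicate 3 lay below the other WT libraries. Counts are therefore given with and without single libraries. Whether replicates come from separate embryos is not in the labels. The p-values rest on the spread within the groups of all 12 E18.5 libraries, NANCI homozygotes and double heterozygotes included. That spread may be technical.

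Of the 13750 genes, 1007 (7.32%) passed the adjusted threshold of 0.05 in limma: 505 (3.67%) rose and 502 (3.65%) fell in Nkx, and 559 (4.07%) both passed and differed by 1 log2 unit or more. For 3046 genes (22.2%) every Nkx value lay on the same side of every WT value. The median difference over all genes was 0.02. Single libraries moved this count: 466 genes passed with WT replicate 1 left out, 502 (259 up, 243 down) with Nkx replicate 3 left out, 611 with Nkx replicate 2 left out and 2179 with WT replicate 3 left out. With the 6 libraries of both groups alone, 491 genes passed. In all, 388 genes (194 up, 194 down) passed in each of the 6 fits that left out 1 library. Genes named below passed in all 6 such fits unless said otherwise. The quantile-normalized values were also centred, library by library, on the median of the ribosomal protein genes (the ribosomal protein scale below). This step is added to the quantile scale and does not replace it. Each library's shift is the same for all genes, so unlike ribosomal medians within a group, as in WT, enter the spread of every gene. The step moved the median of all genes to 0.31. Then 84 genes rose and 24 fell, so 77.8% of the calls were rises, against 50.1% without it. Of 111 passing genes described by name, 35 rises passed on that scale and 24 did not, and 16 falls passed and 36 did not. Tgfb1 and Itih1, named below, are not among the 111. The 16 falls were St6galnac4, St6galnac6, Ivl, Aqp1, Sgpp2, Ntn1, Zmat4, Nwd2, P2rx2, P2rx5 and 6 leukocyte markers, and the 36 other falls lost their calls there.

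**Figure D1:**
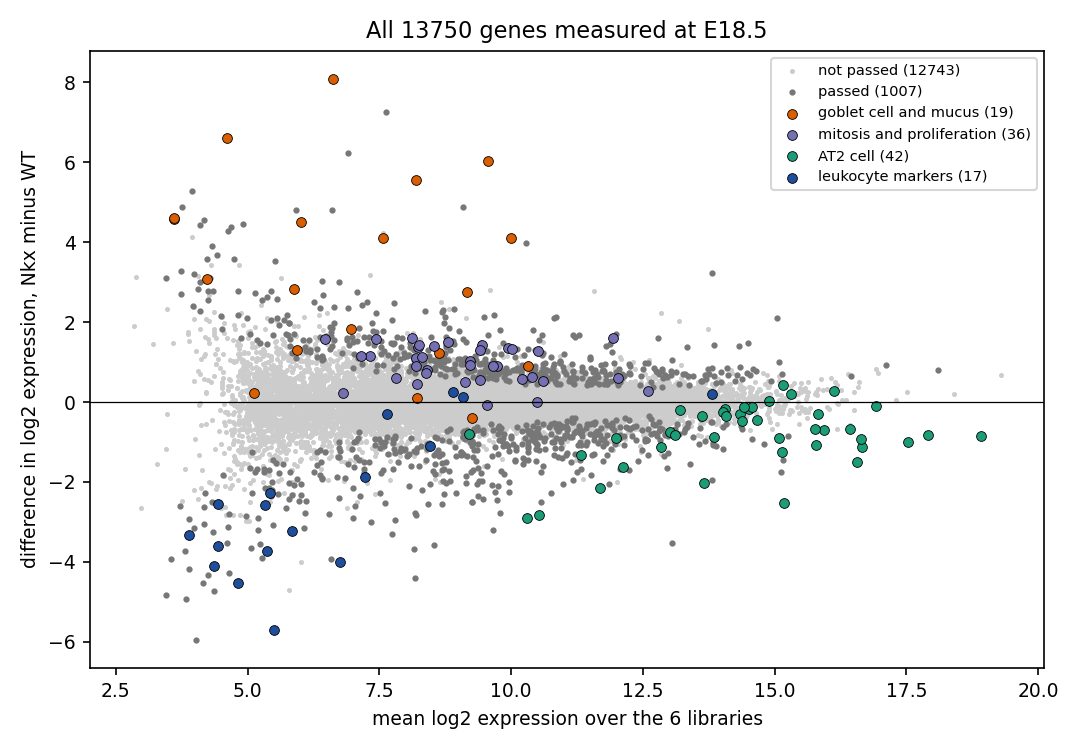
Difference in log2 expression (Nkx minus WT, vertical axis) against mean log2 expression over the 6 libraries (horizontal axis) for all 13750 genes, with 4 gene lists coloured. Goblet and mucus genes reach 8.09 above 0, mitosis genes lie mostly just above 0, AT2 genes lie mostly below 0 at high expression, and most leukocyte markers lie below 0.

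Genes of mucus-secreting goblet cells were among the largest rises. Of 26 goblet and mucus genes listed, 19 were measured; 15 of them rose and none fell, where 3.67% of all genes rose. Their median difference was 3.08, and the list averaged 8.9, 8.81 and 8.26 in Nkx libraries and 5.15, 5.74 and 5.3 in WT libraries. Between 11 and 15 members rose when 1 library was left out, and 11 rose on the ribosomal protein scale. The list was chosen with earlier results of these data known, and 3 of its members (Gcnt3, Atoh1 and Tff2) sat at the lowest value in every WT library, which is read as no reads. Over the 14 members with no library at its lowest value, 10 rose and the median was 2.29.

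Tff3, a trefoil peptide secreted with mucus, was at 10.85, 11.36 and 9.82 in Nkx libraries, against 3.12, 3.52 and 1.13 in WT libraries. All 3 Nkx libraries lay far above the WT libraries, and the difference was 8.09 ± 0.69 (limma adjusted p = 8.75e-05). WT replicate 3 was at its lowest value, so the size of the Tff3 difference is uncertain. Its neighbour Tff2, a trefoil peptide of gastric mucous cells, was at 6.78, 5.69 and 5.18 in Nkx libraries and at the lowest value in all WT libraries (adjusted p = 0.011); no fold is given against a group at that value. The nearest measured genes on either side, Abcg1 and Rsph1, did not pass (−0.25 ± 0.43 and −0.50 ± 0.26).

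The secreted mucin genes Muc2, Muc5ac and Muc5b lie side by side on chromosome 7, and all 3 rose. Muc2, the gel-forming mucin of the intestine, was at 9.82, 9.95 and 9.08 in Nkx libraries, against 4.15, 6.69 and 5.73 in WT libraries (4.10 ± 0.57, adjusted p = 0.00118). Muc5ac, the mucin of the stomach surface, was at 7.33, 7.49 and 7.05 in Nkx libraries, against 4.48, 4.76 and 4.15 in WT libraries (2.82 ± 0.51, adjusted p = 0.00537). In neither gene did the groups overlap. Muc5b, an airway mucin, varied more, at 13.95, 10.66 and 11.5 in Nkx libraries and 5.73, 8.88 and 9.2 in WT libraries (4.10 ± 0.89, adjusted p = 0.0155). Its call was lost without Nkx replicate 1 or WT replicate 1, with adjusted p up to 0.0556. The nearest measured genes on either side of the mucin trio, Ap2a2 and Tollip, differed by 0.03 ± 0.11 and −0.06 ± 0.11 and did not pass.

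Genes that build and guard mucus moved in the same direction. Fcgbp, a large protein of mucus gels, was at 12.64, 13.26 and 11.89 in Nkx libraries, against 6.21, 7.52 and 5.93 in WT libraries (6.04 ± 0.50, adjusted p = 8.22e-05). Spink4, a protease inhibitor secreted by goblet cells, was at 10.95, 11.54 and 10.45 in Nkx libraries, against 5.84, 6.3 and 4.15 in WT libraries (5.55 ± 0.57, adjusted p = 0.000186). The lowest Nkx library exceeded the highest WT library by more than 4 log2 units in both genes. Ern2, the stress sensor of the endoplasmic reticulum in mucous cells, rose by 4.51 ± 0.46 (adjusted p = 0.000166). Agr2, a disulfide isomerase that mucin folding needs, was at 11.19, 10.4 and 10.02 in Nkx libraries, against 7.76, 7.49 and 8.12 in WT libraries (2.75 ± 0.39, adjusted p = 0.00138). Of the transcription factors of this lineage, Atoh1 was at 5.94, 6.6 and 5.18 in Nkx libraries and at the lowest value in all WT libraries (adjusted p = 0.000561). Spdef was at 7.61, 8.36 and 7.68 in Nkx libraries, against 5.73, 6.95 and 5.48 in WT libraries (1.83 ± 0.44, adjusted p = 0.0253), a call lost without Nkx replicate 2, Nkx replicate 3 or WT replicate 1 (adjusted p up to 0.109).

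**Figure D2:**
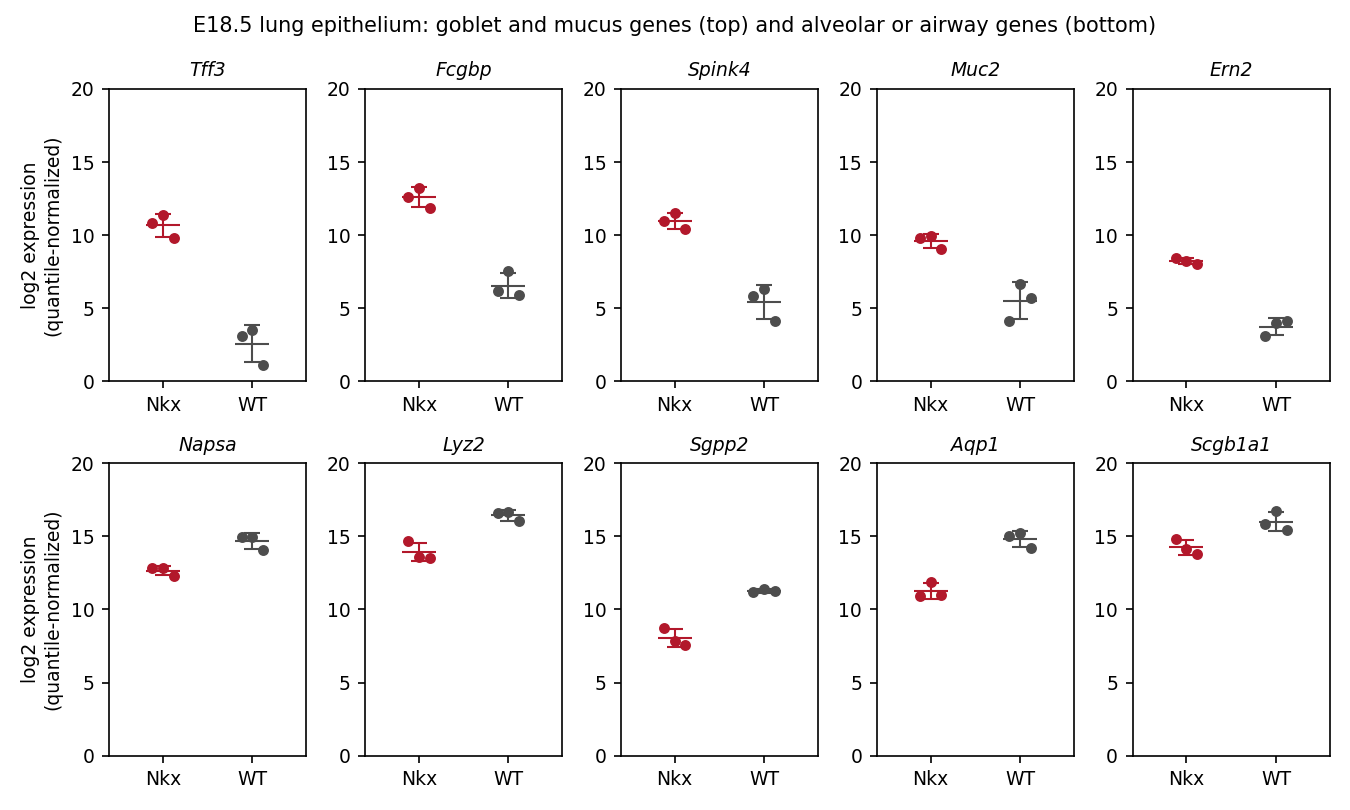
Quantile-normalized log2 expression in each of the 3 Nkx (left) and 3 WT (right) libraries, with the group mean and SD, for 5 goblet and mucus genes (top) and 5 genes titled alveolar or airway (bottom). In the bottom row Napsa and Lyz2 are on the AT2 list and Scgb1a1 is on the club cell list, while Sgpp2 and Aqp1 are on neither. In each panel the groups do not overlap: the top genes are higher in Nkx by 4.10 to 8.09 and the bottom genes lower by 1.76 to 3.53.

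Single enzymes that decorate mucins passed in either direction; their families were picked after values were seen. Of 25 measured genes named Fut, B3gnt, Gcnt or Galnt, which add fucose, N-acetylglucosamine or N-acetylgalactosamine, 4 rose and none fell, with a median of 0.31. Of 11 sialyltransferase genes named St3gal or St6gal, none rose and 3 fell, with a median of −0.37, where 3.67% of all genes rose and 3.65% fell. Gcnt3, which branches mucin O-glycans, was at 7.82, 8.0 and 7.91 in Nkx libraries and at the lowest value in all WT libraries (adjusted p = 1.23e-05). Fut2, the fucosyltransferase that makes the H antigen in secretions, was at 8.51, 8.1 and 8.11 in Nkx libraries, against 4.48, 5.39 and 5.83 in WT libraries (3.00 ± 0.32, adjusted p = 0.000217). Galnt5, which attaches the first sugar of an O-glycan, rose by 1.23 ± 0.23 (adjusted p = 0.00748). St6galnac4 and St6galnac6, neighbours on chromosome 2, fell by 2.27 ± 0.21 (adjusted p = 0.000128) and by 2.20 ± 0.26 (adjusted p = 0.000428), and St3gal1 fell by 1.59 ± 0.27 (adjusted p = 0.00416); in each of the 3 the Nkx libraries lay below all WT libraries.

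Around Fut2 on chromosome 7 the direction turned within a few genes. Mamstr, next to Fut2, was at 8.35, 8.45 and 8.39 in Nkx libraries, against 5.6, 6.25 and 6.03 in WT libraries (2.44 ± 0.27, adjusted p = 0.000318). On the other side Sec1, a relative of Fut2, was at 6.02, 5.87 and 5.33 in Nkx libraries, against 8.48, 8.65 and 7.91 in WT libraries (−2.60 ± 0.40, adjusted p = 0.00227). Beside it Ntn5, a netrin gene, fell by 2.04 ± 0.40 (adjusted p = 0.00845). Sec1 and Ntn5 share 10381 bases on opposite strands, and no source used here says whether counting used strand, so their reads cannot be told apart.

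Some genes of stomach and intestine also rose. Of 16 measured gut and stomach genes 6 rose and none fell, where 3.67% of all genes rose (median 1.41); 5 passed in every fit that left out a library. Over the 11 with no library at its lowest value, 2 rose and the median was 0.25, and over the 12 with a mean of at least 5, 3 rose and the median was 0.28. Tff2 stands on this list and on the mucus list. Guca2a, which encodes the intestinal peptide guanylin, was at 11.31, 11.89 and 10.58 in Nkx libraries, against 4.97, 5.9 and 1.13 in WT libraries (7.26 ± 0.96, adjusted p = 0.000797). All Nkx values lay above all WT values, although WT replicate 3 was at its lowest value. Muc13, a membrane mucin of the gut, was at 6.66, 6.39 and 4.76 in Nkx libraries and at the lowest value in all WT libraries (adjusted p = 0.000668). The digestive proteases Pgc (pepsinogen C, also made by AT2 cells in human lung) and Ctse (cathepsin E) rose by 1.80 ± 0.37 (adjusted p = 0.0114) and 1.68 ± 0.30 (adjusted p = 0.00536). On the ribosomal protein scale 5 of the 16 rose, and Ctse was not among them (adjusted p = 0.0602).

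Of 16 measured transcription factors of gut and endoderm, 5 rose and none fell, where 3.67% of all genes rose. The 5 were Hnf4a, Klf5, Ehf, and Atoh1 and Spdef, which also stand on the mucus list. Klf5 and Ehf are also on a list of lung epithelial transcription factors, of which 48 were measured, 5 rose and 4 fell. On the gut list, leaving out Nkx replicate 3 or WT replicate 1 left 3 rises, as did leaving out genes with a library at its lowest value (3 of 14). Hnf4a, the nuclear receptor of intestine and liver, was at 6.93, 6.26 and 5.75 in Nkx libraries, against 1.66, 2.89 and 1.13 in WT libraries (4.42 ± 0.68, adjusted p = 0.00212). The lowest Nkx library lay well above the highest WT library. WT replicates 1 and 3 were at their lowest values, so the size of the Hnf4a difference is uncertain. Klf5, a factor of proliferating endoderm, differed by less but more tightly, at 11.96, 12.05 and 11.85 in Nkx libraries and 11.0, 11.18 and 11.12 in WT libraries (0.86 ± 0.14, adjusted p = 0.00278). Its call was lost on the ribosomal protein scale (1.15, adjusted p = 0.276). Ehf, an ETS factor of epithelia, rose by 1.13 ± 0.25 (adjusted p = 0.0174), a call lost without Nkx replicate 1, Nkx replicate 3, WT replicate 1 or WT replicate 2 (adjusted p up to 0.0835).

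The largest falls in number came from the AT2 program. Of 42 AT2 genes, all measured, 17 fell and none rose, where 3.65% of all genes fell; 38 of the 42 lay below 0 and the median was −0.77. The list averaged 14.3, 13.96 and 13.88 in Nkx libraries and 14.94, 14.96 and 14.72 in WT libraries, so every Nkx library lay below every WT library. Between 10 (without Nkx replicate 3, or without WT replicate 1) and 20 members fell when 1 library was left out, 10 of them in each such fit. On the ribosomal protein scale the median was −0.48 and no member passed. Leukocyte markers fell in the same libraries (below), and some AT2 genes, Lyz2 among them, are also genes of macrophages; their part in these differences was not tested. In bulk RNA, fewer cells of a type and less RNA per cell cannot be told apart.

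Of 15 surfactant and lamellar body genes, 3 fell (Napsa, Sftpa1 and Hc) and 2 rose (Pgc and Scgb3a2). Of these calls, 2 falls and 1 rise held whichever library was left out. Over all genes 3.65% fell and 3.67% rose. Napsa, the aspartic protease that trims surfactant protein B, was at 12.83, 12.81 and 12.29 in Nkx libraries, against 14.97, 14.99 and 14.08 in WT libraries (−2.03 ± 0.26, adjusted p = 0.0007). Sftpa1, surfactant protein A, was at 16.22, 15.38 and 15.84 in Nkx libraries, against 17.35, 17.08 and 17.5 in WT libraries (−1.49 ± 0.33, adjusted p = 0.0154). In both genes all Nkx libraries were below all WT libraries, but the Sftpa1 call was lost without Nkx replicate 2, Nkx replicate 3 or WT replicate 1 (adjusted p up to 0.066). The other surfactant proteins did not pass: the difference was −0.85 ± 0.31 for Sftpc (adjusted p = 0.123), −0.68 ± 0.28 for Sftpb (adjusted p = 0.174) and −0.36 ± 0.28 for Sftpd (adjusted p = 0.503). Sftpc held the highest value a library can have, 19.62, in WT replicates 1 and 2, so its difference is one of rank. Abca3, the lipid pump of lamellar bodies, and Slc34a2, the phosphate carrier of AT2 cells, did not pass either (−0.30 ± 0.20 and −0.82 ± 0.28).

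Lyz2, S100g and Lrp2 were among the AT2 genes with the largest falls. Lyz2, a lysozyme of AT2 cells and macrophages, was at 14.65, 13.62 and 13.49 in Nkx libraries, against 16.61, 16.67 and 16.02 in WT libraries (−2.52 ± 0.36, adjusted p = 0.00149). S100g, a calcium-binding protein, was at 11.07, 10.46 and 10.3 in Nkx libraries, against 13.14, 13 and 12.17 in WT libraries (−2.16 ± 0.28, adjusted p = 0.000668). Neither gene's groups overlapped. Lrp2 (megalin), an endocytic receptor, was at 9.96, 8.1 and 8.51 in Nkx libraries, against 11.32, 11.98 and 11.99 in WT libraries (−2.90 ± 0.49, adjusted p = 0.00397). Cubn (cubilin), the receptor that works with megalin in the kidney, fell with it by 3.30 ± 0.42 (adjusted p = 0.000668). Hc, complement component C5, Il33, an alarmin cytokine, and Bex2 differed by −1.07 ± 0.19, −0.90 ± 0.15 and −1.63 ± 0.25, and each passed. Cxcl15, a chemokine of lung epithelium, fell by 1.0 ± 0.27 (adjusted p = 0.0419), a call lost whichever library was left out.

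Sgpp2, Lipa and Aqp1 also fell and are not on the AT2 list. A list of 40 lipid synthesis genes, which does not include them, held no rise and 2 falls (5.0%, against 3.65% of all genes). Sgpp2, which removes phosphate from sphingosine-1-phosphate, was at 8.76, 7.84 and 7.56 in Nkx libraries, against 11.16, 11.38 and 11.23 in WT libraries (−3.21 ± 0.29, adjusted p = 0.000109). Lipa, the lysosomal acid lipase, was at 10.84, 10.54 and 10.46 in Nkx libraries, against 12.55, 12.37 and 12.38 in WT libraries (−1.82 ± 0.15, adjusted p = 8.22e-05). The WT libraries lay close together, and far above the Nkx libraries, in both genes. Of 19 ion and water transport genes 1 rose (5.3%) and 3 fell (15.8%, against 3.65% of all genes), with a median of 0.09. Of these, Aqp1, a water channel, was at 10.95, 11.91 and 11.0 in Nkx libraries, against 15.02, 15.24 and 14.18 in WT libraries (−3.53 ± 0.31, adjusted p = 8.84e-05). The Aqp1 and Sgpp2 falls passed on the ribosomal protein scale too (adjusted p = 0.00151 and 0.0162), while that of Lipa did not (adjusted p = 0.169).

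**Figure D3:**
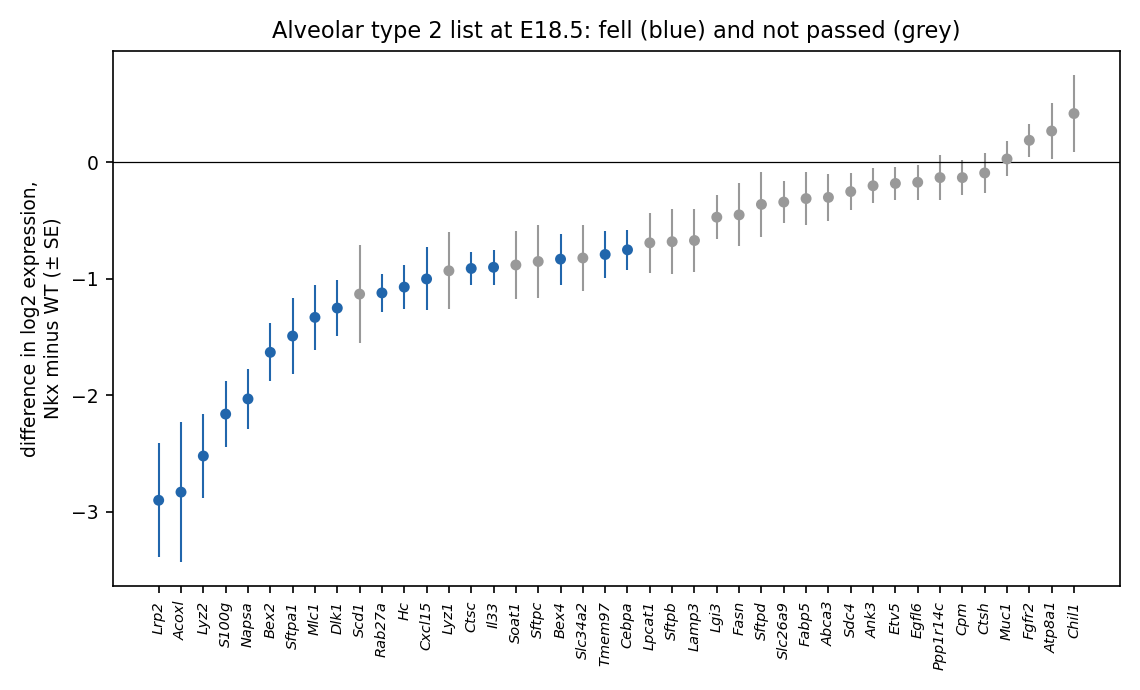
Difference in log2 expression, Nkx minus WT, with its standard error (vertical axis) for the 42 AT2 genes in order of size (horizontal axis). The 17 genes that fell are blue and the 25 that did not pass are grey; Lrp2 is lowest at −2.90 and Chil1 highest at 0.42.

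To set the promoters of both programs beside the response, 300 bases around a start site (RefSeq, GRCm38.p6) were searched on both strands. The motif was CTCAAG, the core that NKX2-1 binds. For the shares by gene, only the first listed start site of each gene was used, so matches at other start sites are not counted. Promoters were at hand for 10291 measured genes. The core was in 58 of 367 promoters of genes that rose (15.8%), in 48 of 380 of genes that fell (12.6%) and in 1457 of all 10291 (14.2%). It was in 7 of 34 AT2 promoters and in 3 of 9 goblet promoters. A second motif, CAAAGTCC, part of the site of HNF4A, was in 1.63% of promoters of genes that rose, in 2.11% of genes that fell and in 1.26% of all, on both strands; neither motif contains the other. These are letter matches in short windows and describe sequence alone.

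The promoters below, in the sense of the gene, show the range, with matches to CTCAAG or its reverse complement in capitals: 1 match in Sftpa1 (fell), 2 in Sftpb (did not pass), 1 in Aqp1 (fell), 3 in Syt8 (rose) and none in Muc2 (rose). They lie at chr14:41131538-41131837, chr6:72304360-72304659, chr6:55336049-55336348, chr7:142434600-142434899 and chr7:141690090-141690389, in that order and all on the plus strand.
Sftpa1: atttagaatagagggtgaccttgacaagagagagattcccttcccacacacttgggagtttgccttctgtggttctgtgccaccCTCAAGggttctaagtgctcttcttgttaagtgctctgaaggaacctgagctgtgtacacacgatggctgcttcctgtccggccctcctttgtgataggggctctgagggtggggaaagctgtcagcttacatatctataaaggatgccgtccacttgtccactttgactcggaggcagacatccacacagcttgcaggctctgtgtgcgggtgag
Sftpb: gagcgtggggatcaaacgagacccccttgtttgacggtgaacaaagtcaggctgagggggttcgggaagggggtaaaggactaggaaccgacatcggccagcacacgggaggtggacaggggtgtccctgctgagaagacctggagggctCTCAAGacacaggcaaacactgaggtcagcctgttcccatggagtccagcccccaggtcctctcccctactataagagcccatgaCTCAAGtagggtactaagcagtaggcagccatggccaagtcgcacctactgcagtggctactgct
Aqp1: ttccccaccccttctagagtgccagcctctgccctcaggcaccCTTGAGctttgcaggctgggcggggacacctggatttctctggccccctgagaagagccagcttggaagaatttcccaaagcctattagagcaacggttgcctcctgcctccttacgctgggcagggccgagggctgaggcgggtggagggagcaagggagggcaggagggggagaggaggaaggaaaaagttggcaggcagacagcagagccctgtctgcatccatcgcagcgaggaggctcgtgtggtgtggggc
Syt8: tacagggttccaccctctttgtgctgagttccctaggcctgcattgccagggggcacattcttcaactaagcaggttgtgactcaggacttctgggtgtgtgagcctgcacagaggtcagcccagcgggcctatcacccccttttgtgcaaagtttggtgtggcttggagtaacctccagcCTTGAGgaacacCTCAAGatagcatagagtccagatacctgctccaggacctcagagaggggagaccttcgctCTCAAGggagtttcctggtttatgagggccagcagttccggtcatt
Muc2: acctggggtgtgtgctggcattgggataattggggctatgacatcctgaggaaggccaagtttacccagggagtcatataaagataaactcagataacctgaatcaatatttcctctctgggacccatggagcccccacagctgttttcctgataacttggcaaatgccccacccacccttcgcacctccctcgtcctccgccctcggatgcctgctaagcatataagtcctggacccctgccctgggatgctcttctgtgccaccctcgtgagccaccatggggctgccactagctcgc
Counted from the start site, the Sftpa1 match begins at −166 and that of Aqp1 at −207. Syt8, which encodes a synaptotagmin and lies between the mucin genes and H19 on chromosome 7, was at 6.11, 5.45 and 5.63 in Nkx libraries, against 1.66, 3.52 and 3.7 in WT libraries (2.77 ± 0.56, adjusted p = 0.0101). Its value in WT replicate 1 was the lowest of that library. Genes with matches thus rose, fell or did not pass.

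AT1 genes did not move as a group: of 41 measured, 2 rose (4.9%) and 5 fell (12.2%), with a median of 0.07, where 3.67% of all genes rose and 3.65% fell. Only 1 rise and 1 fall passed in all 6 fits that left out a library, and without WT replicate 3 the counts were 5 and 9. Ndnf, a secreted glycoprotein, was at 15.74, 16.2 and 16.33 in Nkx libraries, against 13.83, 13.97 and 14.18 in WT libraries (2.10 ± 0.17, adjusted p = 8.22e-05). Rtkn2 was at 13.01, 12.73 and 12.79 in Nkx libraries, against 14.6, 14.67 and 15.11 in WT libraries (−1.95 ± 0.37, adjusted p = 0.00771). These 2 list members moved in opposite directions with no overlap between the groups. Ager, the receptor that marks AT1 cells, was at 15.36, 15.95 and 14.97 in Nkx libraries and 16.22, 16.36 and 14.88 in WT libraries, which overlap (−0.39 ± 0.34, adjusted p = 0.563).

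In the airway lists Scgb1a1 fell and Scgb3a2, another secretoglobin, rose, and neither passed on the ribosomal protein scale (adjusted p = 0.23 and 0.132). Scgb1a1 was at 14.81, 14.16 and 13.79 in Nkx libraries, against 15.87, 16.72 and 15.44 in WT libraries (−1.76 ± 0.33, adjusted p = 0.00762). Scgb3a2 was at 17.67, 17.67 and 17.35 in Nkx libraries, against 16.77, 16.77 and 16.41 in WT libraries (0.92 ± 0.25, adjusted p = 0.0418). No values overlapped, but the Scgb3a2 call was lost when any 1 of the 6 libraries was left out (adjusted p up to 0.128). Over the club cell list 4 of 27 genes rose and 3 fell (14.8% and 11.1%), or 1 and 1 whichever library was left out. Over all genes 3.67% rose and 3.65% fell. Gsto1, a glutathione transferase among the rises, was at 12.6, 12.65 and 12.54 in Nkx libraries, against 11.18, 11.19 and 11.07 in WT libraries (1.45 ± 0.22, adjusted p = 0.00185). No ciliated gene of 41 passed (median −0.44, 38 below 0). Of 11 neuroendocrine genes measured, 1 rose (9.1%) and 1 fell (9.1%), with a median of 0.11. Calca, which encodes the peptide CGRP, rose by 1.85 ± 0.33 (adjusted p = 0.00536) and Ddc, which makes amine transmitters, fell by 1.15 ± 0.16 (adjusted p = 0.00126).

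Of 12 basal and squamous genes 2 rose (16.7%) and 1 fell (8.3%), where 3.67% of all genes rose and 3.65% fell. The median of the list was 0.73, with 10 genes above 0. Pkp1, a desmosome protein of stratified epithelia, was at 8.48, 8.44 and 8.06 in Nkx libraries, against 3.12, 4.54 and 2.89 in WT libraries (4.81 ± 0.44, adjusted p = 0.000106). Outside that list Krt34, a keratin of hair, rose by 3.54 ± 0.49 (adjusted p = 0.00125). Ivl, the envelope protein involucrin and the member that fell, was at 4.54, 4.45 and 4.48 in Nkx libraries, against 7.76, 7.33 and 7.85 in WT libraries (−3.16 ± 0.39, adjusted p = 0.000563). Of the claudins, Cldn1, a tight junction gene, fell by 3.16 ± 0.60 (adjusted p = 0.00734) and was at its lowest value in Nkx replicate 1.

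The mean of the leukocyte markers was lower in every Nkx library than in every WT library. Of 39 listed, 17 were measured, of which 10 fell and none rose, where 3.65% of all genes fell. The list averaged 5.17, 5.96 and 4.78 in Nkx libraries and 7.89, 7.79 and 7.7 in WT libraries, with a median difference of −2.58. Of the 17, 14 lay below 0 and 3 above 0. In 1 of those 3 every Nkx value exceeded every WT value, as in 11.7% of all genes. The genes that fell are mostly those of macrophages. F13a1, a coagulation factor of tissue macrophages, was at 1.99, 4.86 and 1.13 in Nkx libraries, against 8.19, 8.5 and 8.39 in WT libraries (−5.70 ± 0.83, adjusted p = 0.00162). Cx3cr1, the fractalkine receptor, was at 1.99, 2.89 and 2.76 in Nkx libraries, against 7.11, 7.39 and 6.76 in WT libraries (−4.54 ± 0.59, adjusted p = 0.000725). Several Nkx values of these 2 genes are at or near the lowest a library holds, so the size of the falls is uncertain. Adgre1 (F4/80), the scavenger receptors Mrc1 and Stab1, and Plek, a signalling protein of blood cells, fell too, with differences of −4.10 ± 0.66, −4.01 ± 0.52, −3.73 ± 0.60 and −3.61 ± 0.62. Adgre1 and Plek were at the lowest value in Nkx replicate 3. The pan-leukocyte gene Ptprc (CD45) was at 4.29, 5.18 and 3.4 in Nkx libraries and 6.67, 6.17 and 6.84 in WT libraries, without overlap, but did not pass (−2.27 ± 0.73, adjusted p = 0.0829).

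Between 7 and 11 leukocyte markers fell when 1 library was left out, and 6 fell on the ribosomal protein scale. Fewer markers of other cell types passed. Of 12 endothelial markers 1 fell (8.3%), of 14 mesenchymal markers 2 fell (14.3%), and of 7 mesothelial markers none passed, where 3.65% of all genes fell. Most endothelial and mesenchymal markers lay below 0 (10 and 10, medians −0.47 and −0.65), and 5 mesothelial markers lay above 0 (median 0.44). All 8 measured genes of MHC class II antigen presentation lay below 0 (median −0.45), and none passed. The erythroid gene Sptb, the sole one of its list measured, fell by 1.54 ± 0.24 (adjusted p = 0.00268).

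Genes of the cell cycle were higher in Nkx. Of 36 mitosis genes, 24 rose and none fell, where 3.67% of all genes rose, with a median of 0.97; the list averaged 9.64, 9.63 and 9.51 in Nkx libraries and 8.63, 8.43 and 8.86 in WT libraries. Leaving out WT replicate 1 left 12 rises, leaving out Nkx replicate 3 left 15, and leaving out Nkx replicate 1, Nkx replicate 2 or WT replicate 2 left 16; 11 genes rose in all 6 such fits. Mki67, the proliferation antigen Ki-67, was at 12.84, 12.71 and 12.67 in Nkx libraries, against 11.13, 10.71 and 11.58 in WT libraries (1.6 ± 0.22, adjusted p = 0.00118). Its Nkx values lay close together and above every WT value. Ube2c, which drives mitotic exit, Ttk, a spindle checkpoint kinase, Nusap1, a spindle protein, and Ccnb2 (cyclin B2) rose by 1.6 ± 0.30, 1.59 ± 0.32, 1.51 ± 0.26 and 1.44 ± 0.30. On the ribosomal protein scale the median was 1.27 and 3 members rose, Ube2c and Ccnb2 among them.

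Of 40 DNA replication genes 9 rose (22.5%, against 3.67% of all genes) and none fell (median 0.29). E2f8, a repressor of the E2F family, rose by 1.66 ± 0.34 (adjusted p = 0.0112). The helicase subunits Mcm5 and Mcm4 rose by 1.04 ± 0.20 and 0.85 ± 0.17, the ligase Lig1 by 1.04 ± 0.15, and Uhrf1, which maintains DNA methylation, by 0.99 ± 0.20. Between 6 and 12 members rose when 1 library was left out, and none on the ribosomal protein scale.

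**Figure D4:**
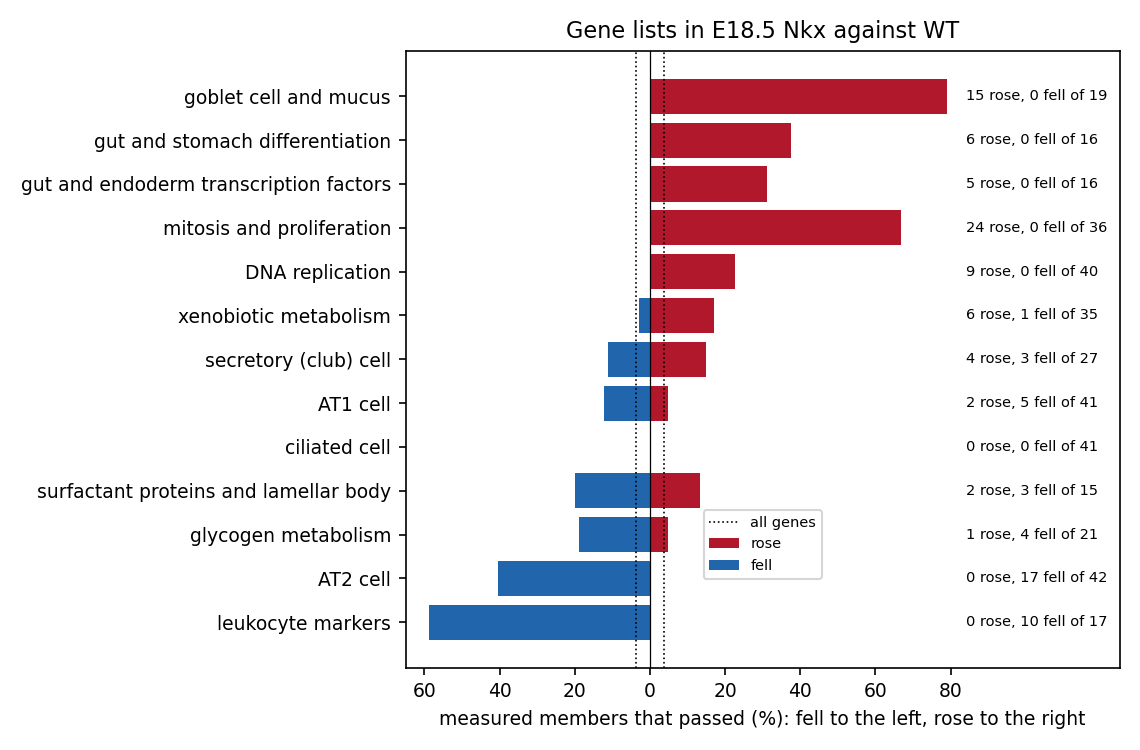
Percentage of measured members of 13 gene lists that rose (red, to the right) or fell (blue, to the left) in Nkx against WT, with the counts at the right; dotted lines give 3.67% and 3.65% for all genes. The goblet, gut and mitosis lists hold rises without falls, and the AT2 and leukocyte lists falls without rises.

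Of 31 BMP and TGF-beta genes 2 rose (6.5%) and 6 fell (19.4%, against 3.65% of all genes). Tgfb2, a TGF-beta ligand, was at 13.36, 13.64 and 13.72 in Nkx libraries, against 12.52, 12.48 and 12.58 in WT libraries (1.05 ± 0.15, adjusted p = 0.00162). Tgfb1, another ligand on the list, moved the other way (−1.46 ± 0.31, adjusted p = 0.0137). It was at 6.51, 6.19 and 6.47 in Nkx libraries, against 8.08, 8.07 and 7.4 in WT libraries. Its calls with 1 library left out are not given here. Id2, a BMP target, fell by 0.87 ± 0.15 (adjusted p = 0.00461). The median of that list was −0.12 (0.17 on the ribosomal protein scale), and 2 members fell without WT replicate 1. Of 34 Wnt genes 2 rose (5.9%) and 2 fell (5.9%), and of 19 Notch genes 2 rose (10.5%) and 1 fell (5.3%). Of 25 FGF genes none rose and 1 fell (4.0%). Over all genes 3.67% rose and 3.65% fell. The receptor Notch3 rose by 1.04 ± 0.19 (adjusted p = 0.00593), the ligand Wnt3a fell by 1.73 ± 0.31 (adjusted p = 0.00536), and Dusp4, a phosphatase induced by FGF signalling, fell by 2.49 ± 0.37 (adjusted p = 0.00188). These single calls were lost on the ribosomal protein scale, with the same signs.

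All 3 netrin genes measured fell, a family grouped after values were seen. Ntn1, the guidance cue netrin-1, was at 5.25, 3.84 and 4.76 in Nkx libraries, against 8.32, 8.61 and 8.73 in WT libraries (−3.94 ± 0.33, adjusted p = 8.22e-05). The Nkx libraries lay more than 3 log2 units below the WT libraries. Ntn4 fell by 0.91 ± 0.25 (adjusted p = 0.0426), a call kept only without Nkx replicate 2 when 1 library was left out (adjusted p up to 0.13), and the fall of Ntn5, which overlaps Sec1, is given above. Nrp1, a receptor of semaphorins and VEGF, fell by 1.05 ± 0.19 (adjusted p = 0.0057). Over the whole list of guidance cues and receptors 2 of 35 genes rose (5.7%) and 4 fell (11.4%), or 0 and 3 whichever library was left out. Over all genes 3.67% rose and 3.65% fell. The ATP-gated channel genes P2rx2 and P2rx5, picked after their values were seen, fell by 2.52 ± 0.29 (adjusted p = 0.000368) and by 2.64 ± 0.38 (adjusted p = 0.00138).

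Glycogen genes held 1 large rise. Ppp1r3a, the subunit that brings protein phosphatase 1 to glycogen in muscle, was at 11.44, 10.97 and 12.18 in Nkx libraries, against 6.3, 5.9 and 7.79 in WT libraries (4.87 ± 0.44, adjusted p = 0.000106). Ppp1r3c, another such subunit, was at 11.29, 10.58 and 10.88 in Nkx libraries, against 12.11, 12.25 and 12.33 in WT libraries (−1.31 ± 0.18, adjusted p = 0.00109). Phka2, the liver subunit of phosphorylase kinase, fell by 1.18 ± 0.18 (adjusted p = 0.00204). Of 21 glycogen genes measured, 1 rose (4.8%) and 4 fell (19%, against 3.65% of all genes), or 1 and 2 whichever library was left out. On the ribosomal protein scale 1 rose and none fell, with Ppp1r3c and Phka2 no longer passing (adjusted p = 0.574 and 0.658).

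Of 24 progenitor and oncofetal genes 3 rose (12.5%) and 4 fell (16.7%), with a median of −0.12; Id2, Ntn1 and Dlk1 are among the falls. The imprinted neighbours H19, a noncoding RNA, and Igf2, a fetal growth factor, rose together on chromosome 7: H19 was at 14.37, 16.25 and 15.69 in Nkx libraries, against 12.67, 12.12 and 11.81 in WT libraries (3.23 ± 0.45, adjusted p = 0.0013). Igf2 was at 14.62, 15.15 and 15.27 in Nkx libraries, against 13.73, 13.65 and 13.48 in WT libraries (1.40 ± 0.26, adjusted p = 0.00661). Another imprinted fetal gene, Dlk1, which is also on the AT2 list, fell by 1.25 ± 0.24 (adjusted p = 0.00765). Alb, albumin, was at 10.26, 10.01 and 9.93 in Nkx libraries, against 7.42, 7.74 and 8.08 in WT libraries (2.32 ± 0.22, adjusted p = 0.000138), and Itih2, a plasma hyaluronan-binding protein, rose by 1.48 ± 0.28 (adjusted p = 0.0069). Of 15 plasma protein genes 2 rose (13.3%) and 1 fell (6.7%), where 3.67% of all genes rose and 3.65% fell. The 1 that fell was Itih1 (−1.82 ± 0.32, adjusted p = 0.00529), so Itih1 and Itih2 moved in opposite directions. Of 35 genes of xenobiotic metabolism 6 rose (17.1%, against 3.67% of all genes) and 1 fell (3 and 0 whichever library was left out), with Ces1c, a carboxylesterase, at 10.57, 9.41 and 10.09 in Nkx libraries, against 3.12, 4.54 and 3.7 in WT libraries (6.24 ± 0.71, adjusted p = 0.000332). Fmo1, a flavin monooxygenase, rose by 0.87 ± 0.17 (adjusted p = 0.00923).

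Further genes among the largest rises belong to no list. Ccl9, a chemokine, was at 8.85, 9.11 and 9.05 in Nkx libraries, against 4.15, 4.29 and 4.15 in WT libraries (4.81 ± 0.54, adjusted p = 0.000318). Pla2g4c, a phospholipase, and Bche, butyrylcholinesterase, rose by 3.97 ± 0.39 (adjusted p = 0.000151) and 3.03 ± 0.44 (adjusted p = 0.00155). Prr16 was at 6.33, 6.6 and 6.84 in Nkx libraries and at the lowest value in all WT libraries (adjusted p = 6.12e-05).

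Among the largest falls, Zmat4 was at 5.87, 5.45 and 6.6 in Nkx libraries, against 10.51, 9.76 and 10.88 in WT libraries (−4.41 ± 0.43, adjusted p = 0.000151). Adamts6, a metalloprotease, was at 7.1, 6.43 and 6.73 in Nkx libraries, against 10.31, 9.59 and 11.07 in WT libraries (−3.57 ± 0.47, adjusted p = 0.000797). Cped1, Myom2 (a protein of the muscle sarcomere), Cnga1 (a cyclic nucleotide-gated channel) and Nwd2 fell too, with differences of −3.67 ± 0.61, −3.91 ± 0.75, −3.66 ± 0.70 and −3.55 ± 0.55. No Nkx value of these 6 genes reached a WT value. Slc22a19, an organic anion transporter, fell by 2.42 ± 0.22 (adjusted p = 0.000106), Usp18, which is induced by interferon, by 1.77 ± 0.23 (adjusted p = 0.000668), and Ddit3 (CHOP), a stress-induced factor, by 1.02 ± 0.19 (adjusted p = 0.00758).

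The E18.5 group most like Nkx carries 1 copy of the Nkx2.1-GFP allele and 1 of NANCI-CreERT2:RFP (Double, 3 libraries). Of 13750 genes 1 (0.00727%) differed between Double and Nkx in limma, and 559 had an unadjusted p under 0.05. That gene was Mucl3, a mucin-like gene named for its call: it was at 10.95, 11.83 and 11.69 in Double libraries and 9.21, 9.68 and 9.05 in Nkx libraries (2.18 ± 0.24, adjusted p = 0.0127). No gene passed without Double replicate 2, Double replicate 3, Nkx replicate 1 or Nkx replicate 3, and Mucl3 was not among the 3 genes that passed with the 6 libraries of both groups alone. In WT libraries Mucl3 was at 7.53, 7.93 and 7.56, below all Nkx libraries (1.64 ± 0.24 for Nkx minus WT, adjusted p = 0.00179).

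The same genotypes were also measured at 6 months (3 Nkx and 3 WT libraries of cells sorted as EpCAM+, CD45- and CD31-), with a partly different set of genes and a separate normalization, so no difference was tested between the ages. There 242 genes rose (1.52%) and 177 fell (1.11%) of 15958 (419, or 2.63%, in limma). Leaving out Nkx replicates 1, 2 and 3 in turn gave 75, 65 and 144 calls, and leaving out WT replicates 1, 2 and 3 gave 178, 59 and 211. Of the 484 genes that rose at E18.5 and were measured at 6 months, 48 rose there and 3 fell. Of the 477 that fell at E18.5 and were measured, 41 fell there and none rose. The 92 genes called at both ages make up 9.6% of the E18.5 calls and 24.5% of the 6-month calls measured at both. The median 6-month difference was 0.13 for genes that had risen, −0.21 for genes that had fallen and 0.02 for all 13034 genes measured at both ages.

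**Figure D5:**
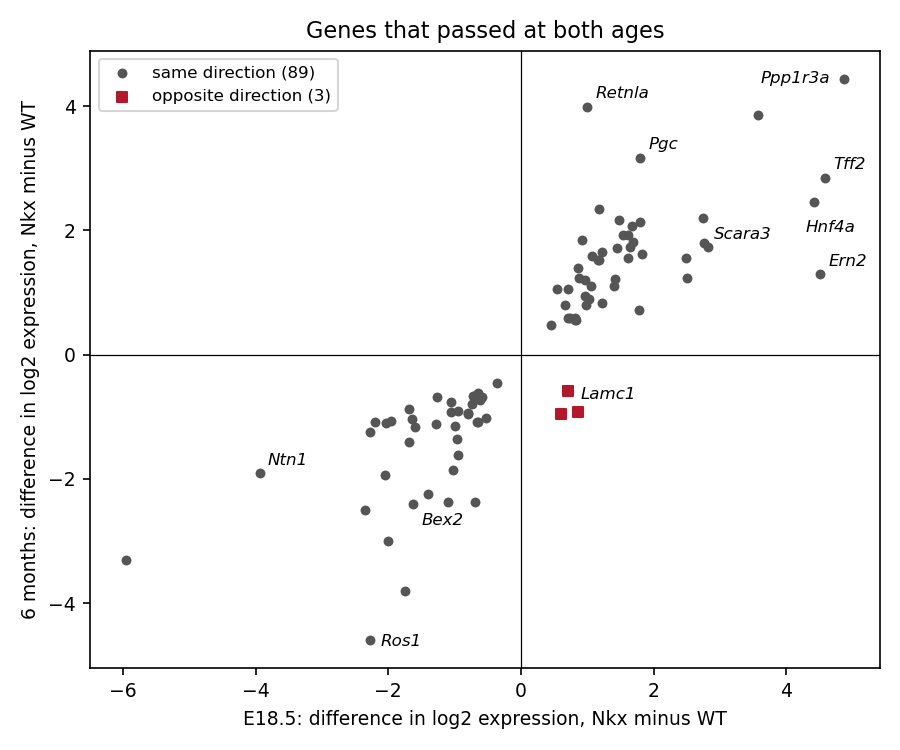
Difference in log2 expression, Nkx minus WT, at E18.5 (horizontal axis) and at 6 months (vertical axis) for the 92 genes that passed at both ages. Of these, 89 lie in the quadrants of equal sign and 3 (squares, Lamc1 among them) rose at E18.5 and fell at 6 months. Tff2 stands at its fitted E18.5 difference, which is no fold since its WT libraries were at the lowest value.

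Of the 89 genes called in the same direction at both ages, 10 passed in every fit that left out 1 library at either age; they were picked by that count. Ppp1r3a had the largest rise of the 10 at both ages: at 6 months it was at 10.15, 10.52 and 9.77 in Nkx libraries, against 4.74, 6.56 and 5.79 in WT libraries (4.44 ± 0.36, adjusted p = 0.00049). Pgc was at 11.03, 10.58 and 10.88 in Nkx libraries, against 7.6, 8.41 and 6.97 in WT libraries (3.17 ± 0.44, adjusted p = 0.00677). All Nkx libraries lay above all WT libraries in both genes. The E18.5 and 6-month differences were 2.76 and 1.80 for Scara3, a scavenger receptor, 1.80 and 2.13 for Mgst2, a microsomal glutathione transferase, and 1.40 and 1.10 for Ptgr1, a prostaglandin reductase. They were 1.18 and 1.52 for Hpse (heparanase) and 1.64 and 1.73 for Il18rap, a chain of the interleukin-18 receptor.

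The falls among the 10 were Ros1, Bex2 and Rragd. Ros1, a receptor tyrosine kinase, was at 10.3, 9.09 and 9.46 in E18.5 Nkx libraries, against 12.24, 11.28 and 12.16 in WT libraries (−2.28 ± 0.44, adjusted p = 0.00798). At 6 months it was at 5.99, 4.89 and 6.67 in Nkx libraries, against 11.14, 10.53 and 9.64 in WT libraries (−4.59 ± 0.54, adjusted p = 0.0029). Bex2 and Rragd, a GTPase of amino acid sensing, fell at 6 months as well (−2.40 ± 0.32 and −1.10 ± 0.16); at E18.5 Rragd differed by −2.03 ± 0.21 (adjusted p = 0.000192).

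Of the mucus and gut genes, some passed at 6 months and others did not. Tff2 was at 12.49, 12.73 and 11.8 in Nkx libraries, against 9.41, 8.41 and 10.65 in WT libraries (2.85 ± 0.51, adjusted p = 0.02). Hnf4a differed by 2.45 ± 0.51 (adjusted p = 0.0339), Ern2 by 1.30 ± 0.27 (adjusted p = 0.0338), Muc5ac by 1.74 ± 0.33 (adjusted p = 0.0241) and Agr2 by 2.20 ± 0.49 (adjusted p = 0.0416). Each of these 5 was called in no more than 2 of the 6 fits that left out an adult library, with adjusted p up to 0.17. Spdef held in all 6 (1.62 ± 0.21, adjusted p = 0.00574). Tff3, the largest rise at E18.5, did not pass at 6 months, at 4.07, 2.34 and 2.85 in Nkx libraries and 1.48, 2.85 and 1.16 in WT libraries (1.26 ± 0.74, adjusted p = 0.347), and Muc5b did not pass either (2.0 ± 0.49, adjusted p = 0.0572). Muc2 was at 4.73, 5.15 and 6.53 in Nkx libraries and 7.42, 6.33 and 5.67 in WT libraries (−1.0 ± 0.70, adjusted p = 0.435), a sign opposite to that at E18.5 with groups that overlapped. Guca2a (−0.32 ± 0.74), Fcgbp (0.83 ± 0.25) and Spink4 (2.44 ± 0.93) did not pass. Of the other genes named, Gsto1, Itih2 and Tgfb2 rose by 1.72 ± 0.30, 2.16 ± 0.42 and 1.10 ± 0.20 and Ntn1 fell by 1.91 ± 0.33, each with a call lost in at least 1 of those fits, at adjusted p up to 0.123. Scgb3a2 and Galnt5 rose too, by 1.85 ± 0.36 (adjusted p = 0.0266) and 1.65 ± 0.28 (adjusted p = 0.0187), and St6galnac6 fell by 1.09 ± 0.19 (adjusted p = 0.0188). Their calls were also each lost in at least 1 of those fits.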

How the data were processed

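RNA of EpCAM-enriched lung epithelium was measured in 12 libraries at E18.5 and 10 at 6 months. The build mm9 and the tools STAR and limma are named, per the submitters' processing notes; library preparation and strand are stated in no source used here. The authors deposited 1 log2 value per Ensembl gene and library. Within an age the libraries share nearly the same values by rank (median SD at equal rank 0.00187 at E18.5), so they were taken as quantile-normalized; a shift common to most genes is removed and the read total is unknown. The lowest value of each library (1 to 1.66 in the 6 libraries), held by 10 to 37 genes, was read as 0 reads, an inference.

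Groups came from the labels. With limma 3.58.1 (R 4.3.3), 1 model per age over all its libraries, group as sole factor and a mean-variance trend, contrasts were tested two-sided with Benjamini-Hochberg adjustment over all genes, at 0.05; the steps were tested on simulated data. Symbols came from GENCODE for 13638 of 13750 genes. Same-numbered Double and Nkx libraries deviated together (r = 0.3, 0.5 and 0.18), a pairing read from the data and not from the labels. Alternatives left out libraries, changed filters, covariates, weights or scale. The members of the comparison and the gene lists were chosen with earlier results of these data known. The genes described were drawn from Nkx2-1, the 15 largest rises and 15 largest falls that passed (mean 5 or more), the 10 smallest p-values, up to 6 passing members per list and the most highly expressed members of the epithelial lists. Agr2, Muc5ac, Fut2, Sec1, Mamstr, Galnt5, the sialyltransferases, Syt8, Mucl3, Prr16, P2rx2, P2rx5, Epcam, Cdh1, Ptprc, Ager, Abca3, Sftpb, Sftpd and the genes picked for their calls at both ages were named after their values were seen. NANCI was not analysed here. Results for 1 gene are not reported here.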

Additional observations from a re-analysis of the deposited data

Results flagged for a closer look

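Laminin gamma 1 (Lamc1), the nonmuscle myosin heavy chain Myh10 and the nuclear pore gene Nup210 moved in opposite directions at the 2 ages, with no overlap between Nkx and WT libraries at either. At E18.5 the difference (log2, Nkx minus WT) was 0.71 for Lamc1, 0.61 for Myh10 and 0.86 for Nup210. At 6 months it was −0.58 ± 0.13 for Lamc1 (limma adjusted p = 0.0383), −0.95 ± 0.20 for Myh10 (adjusted p = 0.032) and −0.92 ± 0.20 for Nup210 (adjusted p = 0.0352). Lamc1 was at 15.47, 15.57 and 15.47 in Nkx libraries, against 14.79, 14.77 and 14.81 in WT libraries, at E18.5, and at 11.7, 11.75 and 11.65 in Nkx libraries, against 12.2, 12.43 and 12.22 in WT libraries, at 6 months. At E18.5 the calls of Myh10 and Nup210 were each lost in at least 1 fit that left out a library, and that of Lamc1 held in all 6. None of the 3 adult calls held in any fit that left out 1 adult library. The difference between the ages was not tested.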

How the results depend on the processing

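The 1007 calls at E18.5 ranged from 466 to 2179 when 1 library was left out. They were 491 with the 6 libraries of both groups alone, 3788 with library weights (whose estimate did not fully converge), 108 on the ribosomal protein scale and 559 with a minimum difference of 1. With female-pattern libraries alone (2 against 2, chosen after seeing the data) 6 genes passed; Nkx2-1 was then at −0.13 and Ager at 0.04, the reverse of their signs with all libraries. Nkx2-1, which never passed, lay between −0.06 and 0.16 when 1 library was left out. The other alternatives gave 850 to 1090 calls. The deviations of same-numbered Nkx and WT libraries correlated at −0.18, 0.47 and 0.39 at E18.5, and at −0.3, −0.1 and −0.28 at 6 months. Since not every pair was above 0.1, those libraries were treated as sharing only a number. A replicate block gave 1090 calls at E18.5 and 131 in place of 419 at 6 months. At 6 months the calls ranged from 59 to 211 when 1 library was left out. For Double against Nkx they ranged from 0 to 1, with 3 in the 6 libraries alone (Mucl3 not among them) and 1 with the block, which changed no call there. Of the 111 passing genes described at E18.5, the call held for 110 under the block, 108 with a covariate for sex pattern, 108 with one for depth, 98 with the 6 libraries alone and 51 on the ribosomal protein scale, and no sign changed. The cause of these shifts was not tested. Total reads are unknown, so differences of genes near a library's lowest value are the least certain.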
